A study of Mus musculus with 12 samples.

Results

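miR-192 and miR-194 are the miRNAs described here, 2 of the 377 assays of card A and the 216 of card B read on TaqMan low-density arrays in mouse bone marrow cells. Both were chosen by their CT values in these samples, in which they were already known to be higher in granulocytes than in promyelocytes, so their levels are given as a description without a test. The arrays covered 12 samples from C57BL/6 mice, namely whole cell, cytoplasmic and nuclear RNA from each of 4 stages of granulopoiesis. The stages, in the order of maturation, were hemopoietic stem cells gated as LSK (lineage-negative, Sca-1-positive, c-Kit-positive), then promyelocytes, myelocytes and granulocytes. They were isolated by flow cytometric sorting, and no treatment or genetic change separated them. Each stage and fraction was represented by 1 sample from 100 ng of RNA with 1 well per assay, so there was no replicate error and no difference between stages within a fraction was tested.

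The level of an assay is given as its CT, the PCR cycle at which its product crossed a fixed brightness. A lower CT means more template, and 1 cycle equals a 2-fold difference at full amplification efficiency. An undetermined well is listed at 40 cycles. The table numbers its assays, and 269 of them could be named, miR-192 and miR-194 among them, both on card A.

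miRNAs are short RNAs cut from hairpin precursors, and they guide Argonaute proteins to mRNAs mainly through the seed near their 5′ end. miR-192 and miR-194 are transcribed together from neighbouring hairpins and are best known from liver, intestine and kidney, and they are induced by the tumour suppressor p53. Among their known targets, Zeb2, a repressor of epithelial genes, is a target of miR-192, and Cdh2, which encodes N-cadherin, is a target of miR-194.

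The mature sequences show which loci the assays can and cannot tell apart. They are printed 5′ to 3′ from RefSeq with the seed, bases 2 to 8, in capitals.
miR-192-5p: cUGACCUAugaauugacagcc
miR-215-5p: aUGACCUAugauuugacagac
miR-194-5p: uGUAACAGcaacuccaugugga

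In the GRCm38.p6 assembly, miR-192-5p lies at chr19:6264857-6264877 on the plus strand. miR-194-5p is encoded at chr19:6264658-6264679 in Mir194-2 and again at chr1:185313325-185313346 in Mir194-1, both on the plus strand. The mature sequence is the same from both loci, so the miR-194 assay reads their sum. Mir194-2 and Mir192 are 115 bases apart on chromosome 19, overlap no other gene of the RefSeq gene table and follow Atg2a. Mir194-1 is paired with Mir215, 195 bases away, inside the span of Iars2, which encodes the mitochondrial isoleucyl-tRNA synthetase.

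miR-215-5p, at chr1:185313610-185313630, was the only other one of 1679 mature mouse names with the miR-192-5p seed. It was identical at 18 of 21 bases, and the substitutions, counted from the 5′ end with the miR-192-5p base first, were C1A, A12U and C20A. No other mature name carried the miR-194-5p seed. None of the named assays was miR-215, so its level beside miR-192 was not analysed here.

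The 2 chromosome 19 hairpins show how both miRNAs sit in 1 cluster. The hairpins are given in their order on the plus strand, with the mature 5p arm in capitals.
Mir194-2, chr19:6264643-6264728: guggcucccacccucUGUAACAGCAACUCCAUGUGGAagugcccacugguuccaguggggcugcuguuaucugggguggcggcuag
Mir192, chr19:6264844-6264932: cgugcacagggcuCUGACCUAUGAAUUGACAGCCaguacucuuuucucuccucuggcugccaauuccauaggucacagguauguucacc

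In whole cell RNA both miRNAs were higher in granulocytes than in promyelocytes, miR-192 by 3.40-fold and miR-194 by 11.2-fold. The CT of miR-192 was 27.5 in granulocytes, 27.9 in myelocytes, 29.7 in promyelocytes and 31.3 in LSK cells. The CT of miR-194 was 28.5 in granulocytes, 29.8 in myelocytes, 32.4 in promyelocytes and 32.6 in LSK cells. On unscaled CT both assays thus read lowest in LSK cells and highest in granulocytes, although miR-194 in LSK cells and promyelocytes differed by 0.23 cycles, and miR-192 gave the earlier CT at each stage.

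The scale for whole cell differences between stages was the average of the 3 final card B assays. miR-192 stepped up first, by a log2 difference of 1.37 from LSK cells to promyelocytes, where miR-194 differed by -0.02. From promyelocytes to myelocytes the log2 difference was 1.73 for miR-192 and 2.61 for miR-194. From myelocytes to granulocytes neither reached the 2-fold limit used here, with 0.03 for miR-192 and 0.88 for miR-194, a step over which 10% of assays were at least 2-fold higher. Without scaling miR-194 passed the limit at this last step, at 1.32, and scaled by card A assays miR-192 missed it from promyelocytes to myelocytes, at 0.95. The main step of miR-194 in whole cells therefore fell between promyelocytes and myelocytes, whereas the rise of miR-192 was split over that step and the one before it.

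Many other assays were higher too. Of the assays under a CT of 30 in at least 1 of the stages compared, 49.6% were at least 2-fold higher in granulocytes than in promyelocytes and 20.3% at least 2-fold lower. The share higher was 38.5% in myelocytes than in promyelocytes and 30.4% in promyelocytes than in LSK cells. Counting undetermined wells at 40, the median log2 difference of these assays between promyelocytes and granulocytes was 0.995. miR-194, with a log2 difference of 3.49, stood at rank 12 of 133 from the highest. miR-192, with 1.76, stood at rank 45, within the upper part of a broad distribution. Scaled by the mean of card A assays under a CT of 30, where the median of all assays was 0.23, the log2 difference of miR-192 was 0.99 and missed the 2-fold limit, while that of miR-194 was 2.72.

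**Figure D1:**
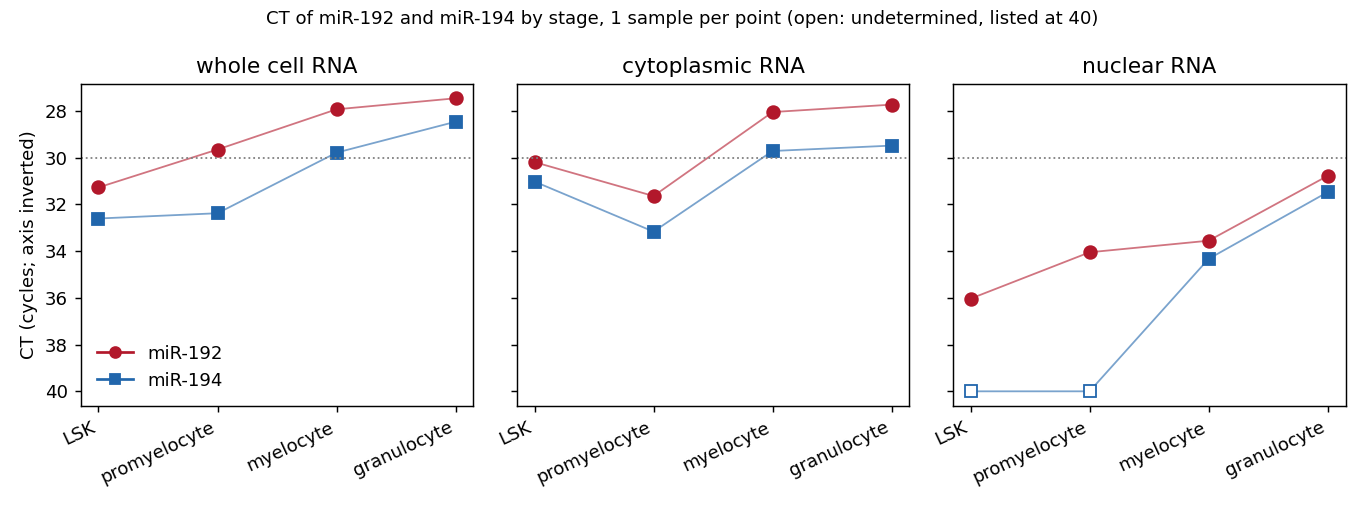
CT of miR-192 (circles) and miR-194 (squares) against stage in whole cell, cytoplasmic and nuclear RNA, with the axis inverted so that more template is higher, 1 sample per point. The dotted line is a CT of 30, and open squares are undetermined wells listed at 40. In whole cell and cytoplasmic RNA miR-192 lies above miR-194 at every stage, and the cytoplasmic promyelocyte sample is the lowest for both.

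Over the whole span from LSK cells to granulocytes the whole cell differences of both miRNAs were alike in size. The log2 difference was 3.14 for miR-192, or 8.81-fold, and 3.47 for miR-194, or 11.0-fold. They stood at ranks 20 and 16 of 135 assays, with a median of 1.06 and 51.1% of the assays at least 2-fold higher in granulocytes. Scaled by card A assays the log2 differences were 2.14 for miR-192 and 2.47 for miR-194. From LSK cells to myelocytes the log2 difference was 3.11 for miR-192 and 2.58 for miR-194, where 46.8% of the assays were at least 2-fold higher. Scaled by card A assays these were 2.10 and 1.57.

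In cytoplasmic RNA both miRNAs were lower in promyelocytes than in LSK cells and then higher in myelocytes and granulocytes. The cytoplasmic CT of miR-192 was 27.7 in granulocytes, 28.05 in myelocytes, 31.6 in promyelocytes and 30.2 in LSK cells. The cytoplasmic CT of miR-194 was 29.5, 29.7, 33.2 and 31.0 in the same order. Myelocytes and granulocytes differed by less than 2-fold for both, by a log2 difference of 0.32 for miR-192 and 0.23 for miR-194, where 14.2% of assays were at least 2-fold higher in granulocytes. On the scale of the 3 final card B assays both turned, to -1.27 for miR-192 and -1.36 for miR-194, more than 2-fold lower in granulocytes, where the median of all assays on that scale was -1.44. These 3 assays had an earlier mean CT in nuclear than in cytoplasmic RNA at each stage, at 20.5 against 26.2 in promyelocytes. In cytoplasm this scale therefore rests on RNAs read more strongly in the nuclear fraction.

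Between LSK cells and promyelocytes the cytoplasmic log2 difference was -1.45 for miR-192 and -2.14 for miR-194, taken on CT without scaling. Neither miRNA was under a CT of 30 in either of these samples. Among the 130 assays that were, 66.2% were at least 2-fold lower in promyelocytes and the median log2 difference was -1.28. The difference of miR-192 was thus close to the shift of the whole sample, and that of miR-194 lay 0.86 below it. Scaled by the last 3 assays of card B, the value of miR-192 turned to 0.40 and that of miR-194 was -0.29, and the median of all assays was 0.57.

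From promyelocytes to myelocytes the cytoplasmic log2 difference was 3.59 for miR-192 and 3.45 for miR-194, at ranks 11 and 12 of 123 assays. The median of those assays was 1.22 and 56.1% were at least 2-fold higher. On the scale of the 3 final card B assays the values were 1.92 for miR-192 and 1.78 for miR-194, with a median of -0.45. Granulocytes exceeded promyelocytes by 15.0-fold for miR-192 and 12.8-fold for miR-194, log2 differences of 3.91 and 3.68, where the median was 1.37 and 59% of 122 assays were at least 2-fold higher. In this fraction both miRNAs stood near the top, at ranks 13 and 17. With the last 3 assays of card B as the scale, which were themselves 3.27 cycles earlier in cytoplasmic granulocytes than in promyelocytes, the log2 differences were 0.65 for miR-192 and 0.42 for miR-194, both below the 2-fold limit, and the median of all assays was -1.90.

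The cytoplasmic span from LSK cells to granulocytes separated the pair more than in whole cells. miR-192 was higher in granulocytes by a log2 difference of 2.46 and miR-194 by 1.54, at ranks 13 and 31 of 141 assays with a median of -0.23. At least 2-fold higher levels in granulocytes were seen for 34% of these assays. On the scale used for whole cells the values were 1.05 for miR-192 and 0.13 for miR-194, which then missed the 2-fold limit, with a median of -1.65. From LSK cells to myelocytes the values were 2.14 for miR-192 and 1.31 for miR-194, with 27.7% of the assays at least 2-fold higher.

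**Figure D2:**
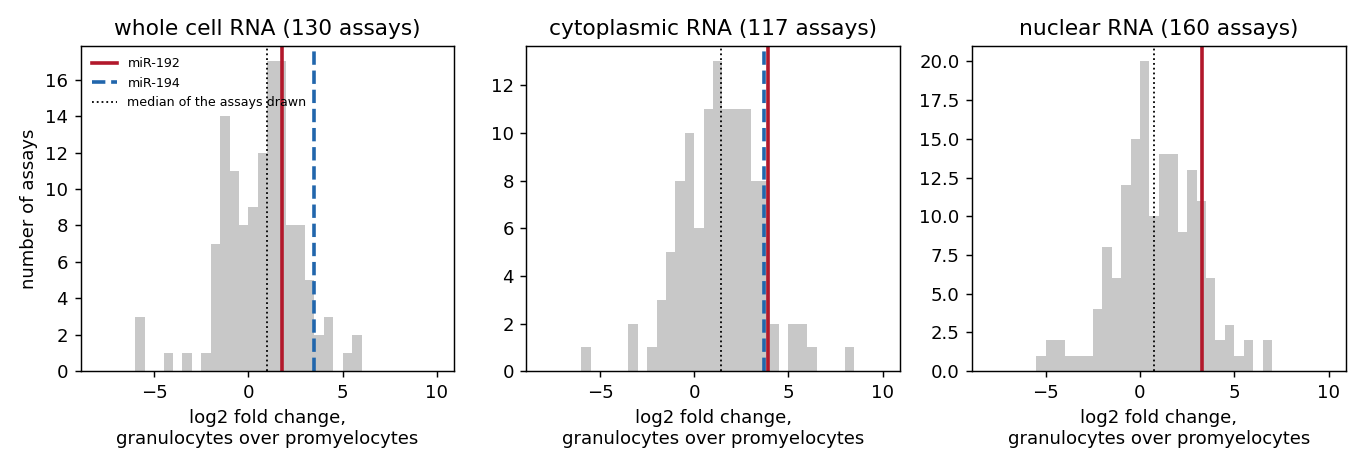
Number of assays (vertical axis) by log2 difference of granulocytes over promyelocytes (horizontal axis) in each RNA fraction, for assays within the CT limit and detected in both stages. Lines mark miR-192 (solid), miR-194 (dashed) and the median of the assays drawn (dotted). miR-192 lies at 1.76 in whole cell RNA, 3.91 in cytoplasmic RNA and 3.27 in nuclear RNA, each to the right of the median.

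Both miRNAs gave later CT values in nuclear RNA than in cytoplasmic RNA of the same stage. The nuclear CT of miR-192 was 30.8 in granulocytes, 33.6 in myelocytes, 34.1 in promyelocytes and 36.04 in LSK cells. miR-194 was undetermined in nuclear RNA of LSK cells and promyelocytes and had a CT of 34.3 in myelocytes and 31.5 in granulocytes. The granulocyte sample was the highest for both, and the order of stages for miR-192 was the same as in whole cells. The study proposes that low nuclear levels of miRNAs come mainly from cytoplasmic carry-over into the nuclear fraction. Whether this holds for the nuclear values of the pair was not tested here.

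Nuclear miR-192 was higher at each later stage. Its log2 difference on unscaled CT was 1.99 from LSK cells to promyelocytes, 0.50 from promyelocytes to myelocytes and 2.78 from myelocytes to granulocytes. Among all assays under a CT of 35 in at least 1 stage, 27.8% were at least 2-fold higher over the first of these steps and 28% over the second. On the scale of the 3 final card B assays the second step was 1.91 and passed 2-fold, and with CT values above 35 set to 35 the first step was 0.95 and did not. Over the last step 67.1% of 207 assays were at least 2-fold higher, the median log2 difference was 1.47, and miR-194 showed 2.86. From promyelocytes to granulocytes miR-192 was higher by 3.27, where 53.8% of 212 assays were 2-fold higher with a median of 1.28. The value was 4.66 on the scale of the 3 final card B assays and 2.74 on the mean of assays under a CT of 30, with medians of 2.67 and 0.75. No fold is given for miR-194 against an undetermined well.

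The nuclear to cytoplasmic ratio, taken as 2 to the power of cytoplasmic minus nuclear CT and divided by 3, was below 0.1 for both miRNAs. The divisor is the one that the ratios printed with the study carry, and what it corrects for is not given in the sources used here, so the ratio is no measured share per cell. For miR-192 it was 0.0403 in granulocytes, 0.00734 in myelocytes, 0.0628 in promyelocytes and 0.00580 in LSK cells. For miR-194 it was 0.0136 in myelocytes and 0.0839 in granulocytes. None of these 6 values passed 0.1, the ratio above which the study spoke of a trend towards nuclear enrichment. The study applied it to miRNAs with a nuclear CT under 30 in at least 1 cell type. Every nuclear CT of the pair was over 30. A ratio of 0.1 was passed by 12.4% of assays under a cytoplasmic CT of 30 in granulocytes, 10.4% in myelocytes, 15.5% in promyelocytes and 13% in LSK cells. The median ratio of those assays moved with the stage as well, being 0.0571 in granulocytes, 0.0195 in myelocytes, 0.0456 in promyelocytes and 0.0175 in LSK cells.

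Set against these medians, miR-192 was at 0.331 times the median in LSK cells, 1.38 times in promyelocytes, 0.376 times in myelocytes and 0.706 times in granulocytes. In LSK cells and promyelocytes its cytoplasmic CT was over 30, so miR-192 was not among the assays behind those medians. miR-194 was at 0.696 times the median in myelocytes and 1.47 times in granulocytes. In both stages miR-194 thus had the higher ratio of the pair. The LSK ratio of miR-192 rests on a late nuclear well, and with CT values above 35 set to 35 it was 0.0119. Without the divisor of 3, the ratio of miR-192 passed 0.1 in promyelocytes, at 0.188, and in granulocytes, at 0.121, and that of miR-194 in granulocytes, at 0.252. So did 66% of the assays counted in promyelocytes and 81.4% in granulocytes.

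**Figure D3:**
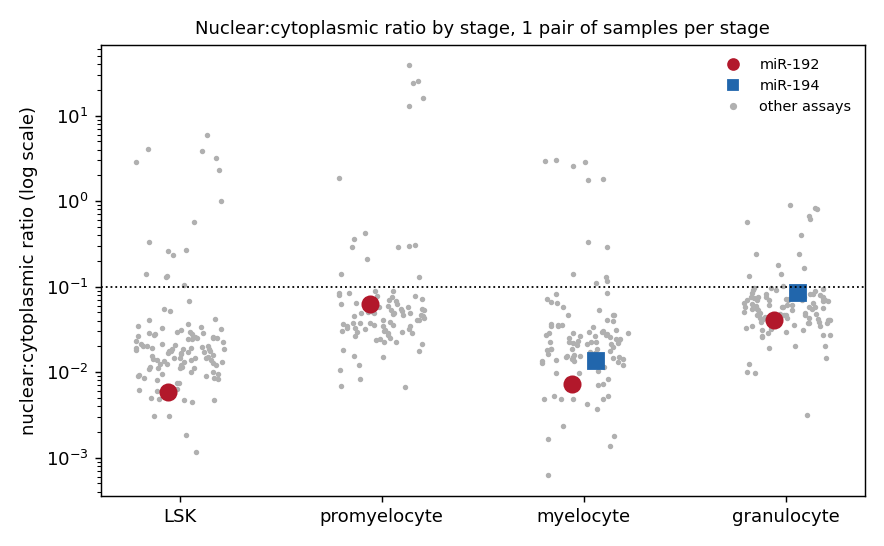
Nuclear to cytoplasmic ratio (log axis) of miR-192 (circles), miR-194 (squares) and other assays (grey) by stage, 1 pair of samples per stage, with the limit of 0.1 dotted. All 6 values of the pair lie below the limit, from 0.00580 for miR-192 in LSK cells to 0.0839 for miR-194 in granulocytes.

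The gap between both assays within a sample needs no scaling, and it moved with the stage. In whole cell RNA miR-194 came up 1.33 cycles after miR-192 in LSK cells, 2.73 cycles after in promyelocytes, 1.85 in myelocytes and 1.0035 in granulocytes. In cytoplasmic RNA the gap was 0.83, 1.52, 1.67 and 1.75 cycles in the same order. In nuclear RNA it was 0.78 in myelocytes and 0.70 in granulocytes, the stages where both were detected. The widest gap was that of whole cell promyelocytes, and from there to granulocytes it closed by more than 1 cycle, since the rise of miR-194 exceeded that of miR-192 by 1.72 on the log2 scale. In cytoplasmic RNA the corresponding difference was -0.23, so the narrowing seen in whole cells had no counterpart there. Each gap rests on 2 wells, and as the assays can differ in efficiency it is no ratio of molecules.

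**Figure D4:**
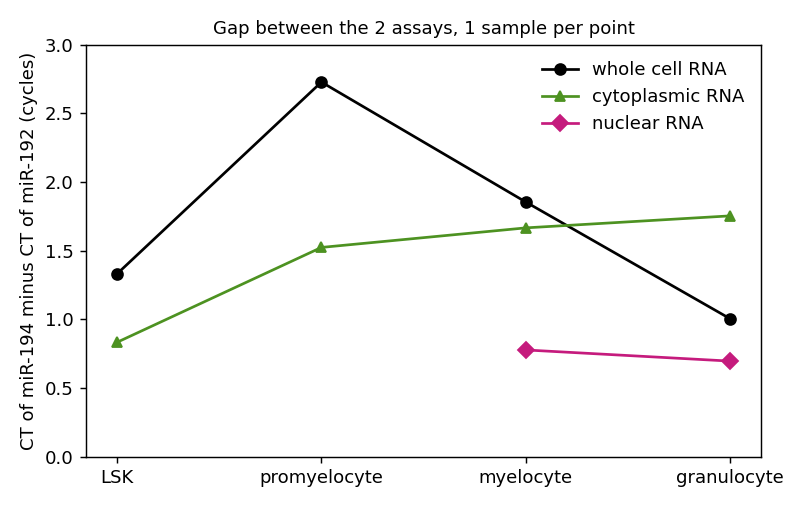
CT of miR-194 minus CT of miR-192 in cycles (vertical axis) by stage in whole cell, cytoplasmic and nuclear RNA, 1 sample per point. The whole cell gap peaks at 2.73 cycles in promyelocytes and ends at 1.0035 in granulocytes, while the cytoplasmic gap goes from 0.83 to 1.75.

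The whole cell and cytoplasmic samples of a stage did not always give the same CT. For miR-192 the whole cell CT minus the cytoplasmic CT was -0.27 in granulocytes, -0.12 in myelocytes, -1.99 in promyelocytes and 1.08 in LSK cells. For miR-194 it was -1.02, 0.07, -0.79 and 1.58 in the same order. The median over assays was -0.51, -0.13, -0.61 and 1.34, so both miRNAs had the sign of the median in each stage but myelocytes, where that of miR-194 differed, and miR-192 in promyelocytes lay at -1.38 cycles relative to the median.

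Across the 8 whole cell and cytoplasmic samples the CT values of miR-192 and miR-194 had a Pearson r of 0.941 and a Spearman rho of 0.952. Without the 2 samples farthest from the median of miR-192, r was 0.869 over 6 samples. These 8 values share cards, RNA input and 4 stages, and unscaled CT of many assays moved together, so r describes the samples and carries no test. Of 151 named assays detected in all 8, miR-194 stood only at rank 19 among those most like miR-192, and miR-192 at rank 24 among those most like miR-194.

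The 5 assays whose CT was most like that of miR-192 were miR-200c (r 0.990), miR-301a (0.985), miR-340-5p (0.981), miR-16 (0.978) and miR-142-5p (0.977). miR-200c, a repressor of Zeb1 and Zeb2, went from a whole cell CT of 34.6 in LSK cells to 27.8 in granulocytes, a wider range than that of miR-192. miR-340-5p kept its distance from miR-192 within a range of 0.825 cycles over the 8 samples. For miR-194 the 5 were miR-15a (r 0.981), miR-15b (0.980), miR-26b (0.980), miR-744 (0.979) and miR-484 (0.978). miR-15a, whose family targets Bcl2 and cyclins, stayed within a range of 1.12 cycles of miR-194.

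Markers of the stages give the setting of the rise. Of 6 stem and progenitor miRNAs, miR-125a-5p, miR-125b-5p, miR-126-3p, miR-130a, miR-196b and miR-99b, all 6 were at least 2-fold lower in cytoplasmic promyelocytes than in LSK cells, as were 66.2% of all cytoplasmic assays counted. On unscaled CT the 4 myeloid miRNAs were all at least 2-fold higher in cytoplasmic granulocytes than in promyelocytes, beside 59% of all assays, among them miR-223, a regulator of granulocyte maturation, with a log2 difference of 3.52. Scaling by the 3 final card B assays, which were 3.27 cycles earlier over this step, would lower each of these differences by that amount. In whole cells 3 of the 4 myeloid miRNAs passed, beside 49.6% of all assays, and miR-223 differed by 2.62, more than miR-192 and less than miR-194. miR-146a, the remaining one, was lower in granulocytes than in LSK cells, by -1.29 in whole cells and -3.45 in cytoplasm, opposite to miR-192 and miR-194.

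miR-150, abundant in lymphocytes, was measured in each sample and was higher in granulocytes than in promyelocytes, like the pair. Its whole cell CT was 25.8 in granulocytes, 25.6 in myelocytes, 28.8 in promyelocytes and 25.1 in LSK cells, a log2 difference of 2.51 from promyelocytes to granulocytes, and 3.15 in cytoplasm. miR-486, an erythroid miRNA, was undetermined in whole cell LSK cells and promyelocytes and had a CT of 31.5 in myelocytes and 31.7 in granulocytes, and in cytoplasm it was detected only in granulocytes, at 33.6. miR-451, the other erythroid marker, matched no single assay. Whether lymphoid or erythroid cells had a part in the levels of miR-192 and miR-194 was not tested, and in such bulk samples fewer cells of a type and less RNA per cell cannot be told apart.

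Of the 5 miRNAs of epithelial cells on the list, 2 were within the CT limit in whole cell promyelocytes or granulocytes, and they differed in opposite directions, where 49.6% of all assays were at least 2-fold higher and 20.3% lower. miR-200c was higher by a log2 difference of 3.01, and by 5.78 in cytoplasm, whereas miR-203, which targets p63 in skin, differed by -1.14. In nuclear RNA both were undetermined in promyelocytes and detected in granulocytes, miR-200c at 30.2 and miR-203 at 32.6. miR-429, of the miR-200 family, differed by 0.36 at CT values near the detection limit. miR-200b and miR-182 were undetermined in whole cell promyelocytes, with granulocyte CT values of 31.0 and 37.0.

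Of the 6 other miRNAs known to be raised by p53, 2 were within the CT limit, and both were at least 2-fold higher in granulocytes than in promyelocytes. miR-15a differed by 2.78 on the log2 scale in whole cells and 2.60 in cytoplasm, and miR-16 by 2.32 and 3.12. miR-34a, a direct p53 target, differed by -0.40 in whole cells at a CT of 31.8 in both stages, and its cytoplasmic well was undetermined in promyelocytes and at 32.7 in granulocytes. miR-107 differed by 1.25 at late CT values. miR-145 was undetermined in whole cell promyelocytes and at 32.7 in granulocytes, and miR-143 was undetermined in both. With 49.6% of all assays at least 2-fold higher over this step, these 2 of 2 do not set the list apart.

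miR-706, a miRNA the study followed in the nucleus, was set beside the pair with the question whether it acts on primary miRNAs. Its nuclear CT was 28.2 in granulocytes, 28.9 in myelocytes, 26.6 in promyelocytes and 28.1 in LSK cells, earliest in the promyelocytes. Nuclear miR-194 was undetermined in both promyelocytes and LSK cells. Nuclear miR-192 had a CT of 36.04 in LSK cells and 34.1 in promyelocytes, a difference in the same direction as that of miR-706. The whole cell CT of miR-706 was 29.2, 28.5, 28.6 and 30.8 from granulocytes back to LSK cells, and its cytoplasmic CT was 27.2, 28.7, 29.1 and 28.9. The sequence of miR-706 is printed for its seed, again in capitals.
miR-706: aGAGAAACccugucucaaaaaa

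The complement of that seed, GUUUCUC, was looked for on the given strand of the hairpins. It was in none of the 4 hairpins of the miR-192, miR-194 and miR-215 loci and in 1.59% of 1005 mouse hairpins. The flanking primary transcripts were not analysed here, so this search cannot decide on the site the study predicted for miR-192. The study described near perfect pairing of miR-706 with the miR-192 primary transcript. It then gave a miR-706 inhibitor to the mouse cell lines MEL and MPRO. The predicted targets measured there, with miR-192 and miR-194 among the assays, did not rise significantly. A higher miR-192 level in MPRO cells was not significant. The inhibitor was seen in the cytoplasm, so the authors allow that nuclear miR-706 was hardly lowered. Of the 6 miRNAs of the miR-706 list, 5 were within the CT limit in whole cells and 4 of them were at least 2-fold higher in granulocytes than in promyelocytes, with miR-532-5p at 2.05, miR-142-3p at 1.89, miR-142-5p at 1.78 and miR-532-3p at 1.75 on the log2 scale. That count stands beside 49.6% of all assays. miR-374 differed by -0.88, and miR-185, outside the CT limit, by 0.998. These 4 values lie near the 1.76 of miR-192 and below the 3.49 of miR-194. The study predicted miR-706 targets by sequence and then compared their levels in these same samples, so the count is no independent evidence.

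**Figure D5:**
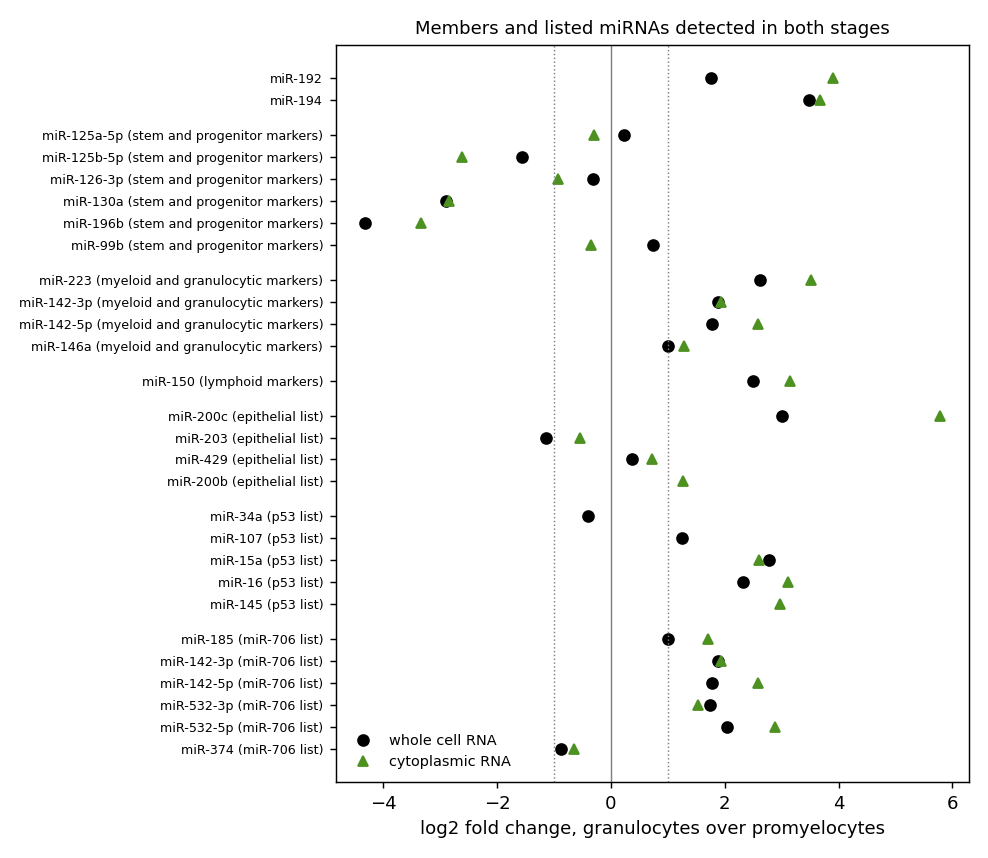
Log2 difference of granulocytes over promyelocytes (horizontal axis) in whole cell (circles) and cytoplasmic (triangles) RNA for miR-192, miR-194 and the listed miRNAs detected in both stages, with dotted lines at 2-fold and late CT values included. miR-194 at 3.49 in whole cells and 3.68 in cytoplasm lies beyond the 4 myeloid markers, and miR-192 at 1.76 in whole cells lies among them.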

How the data were processed

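Nuclear and cytoplasmic fractions were separated with the PARIS kit, RNA was extracted with Trizol and 100 ng was reverse transcribed with rodent primer pools A and B, per the labels. The authors deposited raw CT values from an ABI 7900HT without normalization, with undetermined wells at 40. The numbered assays were named by a unique match of their 8 cytoplasmic and nuclear CT values to those printed with the study within 0.0005 cycles, which named 246, and otherwise by whole cell differences within 0.002, which named 23. The printed whole cell differences are larger than the log2 differences given here. They were first rescaled by a straight line fitted on assays already named. There were 7 entries without a single match and no conflicts. Names, and the choice of the whole cell scale below, rest on that source.

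Whole cell differences used as scale the average of the 3 final card B assays. That scale and the border between the cards were inferred from the table and the printed differences, since no method used here states them. The fractions were compared on unscaled CT. An assay was counted at a CT under 30, or 35 in nuclear RNA, in at least 1 of the samples compared. Undetermined wells entered the shares and medians over all assays at 40. Each group held 1 sample, so no test was run. The number of assays under 40 was 259 to 288 in whole cell, 263 to 294 in cytoplasmic and 199 to 229 in nuclear RNA. Named miRNAs were the pair, the 5 assays most like each by Pearson r, marker lists, epithelial and p53 lists, and miR-706 with its list. The members and lists were chosen with earlier results of these data known. The scripts, tested on simulated data, used Python 3.11.15, matplotlib 3.10.9, scipy 1.17.1, pandas 2.3.3 and numpy 2.4.6. Alternatives covered the scaling, the CT and fold limits, late wells, the fold per cycle and the divisor of the ratio.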

Additional observations from a re-analysis of the deposited data

Results flagged for a closer look

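miR-192 differed in opposite directions between LSK cells and promyelocytes in both preparations. The log2 difference of promyelocytes over LSK cells was 1.37 in whole cell RNA and -1.45 in cytoplasmic RNA, each from 1 sample per stage, and the difference between the preparations was not tested. The median of all assays counted was 0.34 in whole cell RNA and -1.28 in cytoplasmic RNA. Scaled by the last 3 assays of card B, as the whole cell samples were, the cytoplasmic value of miR-192 was 0.40 and the median of all assays 0.57.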

How the results depend on the processing

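Of 292 recomputed values over 53 results, 264 kept their side of the limit, 3 reversed and 25 crossed the limit. The 264 include a change of sign below the limit, for whole cell miR-194 in promyelocytes over LSK cells (-0.02 scaled, 0.23 unscaled). Some settings could not move most values. Nuclear miR-192 in LSK cells, for example, was the only measured well of the pair with a CT above 35. With 1 well per value and no replicates, the precision of a CT is unknown, and CT values over 30 lie near the detection limit. No paired analysis was possible because the stages compared within a fraction share only 1 replicate number. A model over all fractions, which would take the fractions of a stage as its replicates, was not run. The causes of the changes below were not tested.

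The last 3 assays of card B had an earlier mean CT in nuclear than in cytoplasmic RNA at each stage. Scaled by them, cytoplasmic miR-192 reversed to 0.40 (promyelocytes over LSK cells) and to -1.27 (granulocytes over myelocytes), and miR-194 reversed to -1.36 in the latter. Under this scale cytoplasmic miR-194 fell short of 2-fold at -0.29 (promyelocytes over LSK cells), 0.42 (granulocytes over promyelocytes) and 0.13 (granulocytes over LSK cells), as did miR-192 at 0.65 (granulocytes over promyelocytes), while nuclear miR-192 in myelocytes over promyelocytes passed at 1.91. Scaled by the mean of assays under a CT of 30, cytoplasmic promyelocytes over LSK cells were -0.24 for miR-192 and -0.93 for miR-194. Scaled by card A assays, whole cell miR-192 over promyelocytes was 0.95 in myelocytes and 0.99 in granulocytes. Without scaling, whole cell miR-194 in granulocytes over myelocytes was 1.32. With CT values above 35 set to 35, nuclear miR-192 in promyelocytes over LSK cells was 0.95.

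A 3-fold limit was missed by miR-192 in promyelocytes over LSK cells (1.37 in whole cell, -1.45 in cytoplasmic RNA), by cytoplasmic miR-194 over LSK cells (1.54 in granulocytes, 1.31 in myelocytes) and by the widening of the whole cell gap from LSK cells to promyelocytes (1.40). A 1.5-fold limit was passed by whole cell miR-194 in granulocytes over myelocytes (0.88) and by the change of the gap in whole cells from promyelocytes to myelocytes (-0.87) and on to granulocytes (-0.85) and in cytoplasm from LSK cells to promyelocytes (0.69), myelocytes (0.83) and granulocytes (0.92). Without the divisor of 3, the nuclear to cytoplasmic ratio passed 0.1 for miR-192 in promyelocytes (0.188) and granulocytes (0.121) and for miR-194 in granulocytes (0.252), as it did for 66% of assays in promyelocytes and 81.4% in granulocytes. A CT limit of 30 for nuclear assays, added after seeing the data, gave 52.8% of assays at least 2-fold higher in granulocytes than in promyelocytes, against 53.8%.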
